A study of Sus scrofa with 6 samples.

Results

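The smooth muscle actins and their contractile partners were followed in pig stem cells and pig fibroblasts through 10 genes: the actins ACTA2, ACTG2 and ACTC1, the actin-binding genes TAGLN, CNN1 and CALD1, the tropomyosins TPM1 and TPM2, the myosin light chain gene MYL9 and the non-muscle myosin heavy chain gene MYH9. They were chosen by symbol among 20131 genes, and all 10 were found. The set was proposed with the difference between the cell types already known, so that difference is given here as a description and is not tested on the 10 genes. The stem cells were pgEpiSC, pre-gastrulation epiblast stem cells from the epiblast of embryonic day 10 embryos (4 libraries), and the fibroblasts were pEF, pig embryonic fibroblasts from fetuses of embryonic day 30 (2 libraries). Total RNA was depleted of rRNA and sequenced in strand-specific libraries, and expression was given as TPM, a unit of transcript abundance per transcript length. The design text calls the libraries biological replicates. How many lines, embryos or fetuses stand behind them, their passage and their culture could not be learned from the labels, so spread between libraries may be partly technical.

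Contractile force in smooth muscle and in activated fibroblasts comes from myosin II filaments that pull on actin filaments, and is switched on when a kinase phosphorylates the regulatory light chain of the myosin. Tropomyosin, caldesmon, calponin and transgelin lie along the actin filament and set how it is stabilised and how myosin reaches it. ACTA2, alpha smooth muscle actin, marks vascular smooth muscle and is also the usual marker of the myofibroblast, and many of these genes are known targets of serum response factor with its myocardin family partners.

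Levels carry a scale that differs between libraries: the TPM listed in the table came to 157288 at the lowest and 320206 at the highest for pgEpiSC, and to 93556 and 145611 for pEF. The read depth behind each library is unknown, since TPM keeps none and the labels give an average over libraries. The median log2 difference (pgEpiSC minus pEF, on log2(TPM + 1)) of the 10424 genes tested was 0.48 without scaling and 0.02 once median-ratio scaling was applied, which sets the typical gene equal across libraries. With limma at a Benjamini-Hochberg adjusted p below 0.05, 1874 of these genes were higher and 983 lower in pgEpiSC as deposited, and 2810 and 3222 after scaling. Marker genes went with the labels. The 7 epiblast markers found summed to between 421 and 1820 TPM in pgEpiSC and to 0.118 and 0.660 TPM in pEF, and the 8 fibroblast markers found to between 2.64 and 9.96 TPM in pgEpiSC and to 625 and 1397 TPM in pEF. Blood and immune markers stayed at or below 0.875 TPM in pgEpiSC and 0.148 TPM in pEF.

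Together the 10 genes were a smaller part of the listed TPM in pgEpiSC than in pEF. The sum of the 10 levels was 52.6, 166, 85.5 and 50.1 TPM for pgEpiSC 1 to 4, against 1977 and 5892 TPM for pEF 1 and 2. As a share of all listed TPM this was 0.0391 ± 0.00959% in pgEpiSC (SD, n = 4) and 3.08 ± 1.37% in pEF (SD, n = 2), and the shares of the groups did not overlap. The leading gene was ACTA2 in both pEF libraries, and MYH9 or CALD1 in the pgEpiSC libraries. These are bulk RNA levels, in which fewer cells that express a gene and less RNA of it in each cell cannot be told apart.

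**Figure D1:**
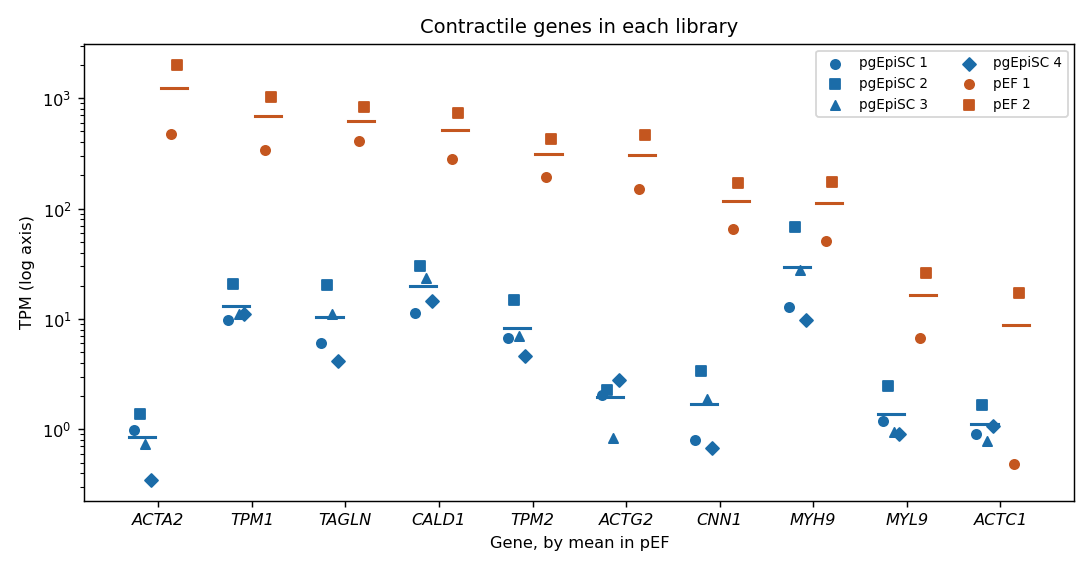
TPM of each of the 10 contractile genes (log axis) in the 4 pgEpiSC libraries (blue, left of each pair) and the 2 pEF libraries (orange, right); points are libraries and bars are group means. For 8 genes every pgEpiSC point lies below both pEF points, while MYH9 and ACTC1 overlap.

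ACTA2 showed the widest gap of the 10. It was at 0.984, 1.37, 0.740 and 0.348 TPM in pgEpiSC 1 to 4, against 475 and 2011 TPM in pEF libraries 1 and 2. The lower pEF library was thus 347 times the highest pgEpiSC library, and the log2 difference was -9.07 ± 0.55 (SE), with -10.11 without pEF library 1 and -8.03 without pEF library 2. Only 1 of the 10424 tested genes had a lower value. ACTG2, the gamma smooth muscle actin of gut and bladder wall, was the next: 2.05, 2.28, 0.834 and 2.78 TPM in pgEpiSC, and 150.2 and 465 TPM in pEF. These groups were also far apart, with a log2 difference of -6.52 ± 0.54 (SE), and -7.34 or -5.71 without pEF library 1 or 2.

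ACTC1, the actin of heart muscle and of embryonic skeletal muscle, did not follow the smooth muscle actins. It was at 0.901, 1.67, 0.792 and 1.08 TPM in pgEpiSC, against 0.491 and 17.1 TPM in pEF. One pEF library lay below every pgEpiSC library and the other above, so the groups overlapped. The log2 difference of -1.32 ± 0.61 (SE) turned with the library left out: it was -3.12 without pEF library 1 and 0.48 without pEF library 2. Beside it, the 8 skeletal and cardiac muscle markers found summed to between 0.718 and 2.15 TPM in pgEpiSC, and to 0.439 TPM in pEF library 1 and 8.98 TPM in pEF library 2. Of these markers, 4 reached 1 TPM in pEF library 2 and 0 in pEF library 1. The part of such RNA in the ACTC1 level was not tested.

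TAGLN, CNN1 and CALD1 encode transgelin, calponin and caldesmon, which bind along actin filaments. TAGLN was at 6.09, 20.5, 11.1 and 4.19 TPM in pgEpiSC, against 414 and 833 TPM in pEF. CNN1 was lower in level but as far apart, at 0.802, 3.38, 1.90 and 0.677 TPM in pgEpiSC and 65.5 and 169.6 TPM in pEF. For both genes the lower pEF library was about as far above the highest pgEpiSC library, at 20.2 times for TAGLN and 19.4 times for CNN1. The log2 difference was -5.89 ± 0.52 (SE) for TAGLN and -5.42 ± 0.56 (SE) for CNN1. Without pEF library 1 or 2 that of TAGLN was -6.40 or -5.39 and that of CNN1 was -6.10 or -4.74. The level of TAGLN relative to CNN1 varied little: it was 7.60, 6.08, 5.86 and 6.19 times that of CNN1 in pgEpiSC and 6.32 and 4.91 times in pEF, although both genes were far lower in pgEpiSC. CALD1, which is made in a long smooth muscle form and a short form found in most cells, kept a clear level in the stem cells. It was at 11.3, 30.1, 23.3 and 14.5 TPM in pgEpiSC, against 281 and 741 TPM in pEF. The log2 difference of CALD1 was -4.55 ± 0.49 (SE), and -5.25 or -3.86 without pEF library 1 or 2. Gene-level TPM does not tell the long from the short form.

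TPM1 and TPM2 encode tropomyosins, coiled-coil proteins that run along the actin filament. TPM1 was at 9.71, 20.6, 11.1 and 11.2 TPM in pgEpiSC, against 339 and 1031 TPM in pEF. In pEF it was second to ACTA2 by mean. TPM2 was at 6.79, 15.01, 7.04 and 4.59 TPM in pgEpiSC, against 194 and 425 TPM in pEF. Neither gene overlapped between the groups. The log2 difference was -5.45 ± 0.49 (SE) for TPM1, with -6.25 or -4.65 without pEF library 1 or 2, and -5.06 ± 0.51 (SE) for TPM2, with -5.62 or -4.49. The TPM1 to TPM2 ratio was 1.43, 1.37, 1.58 and 2.44 in pgEpiSC 1 to 4, and 1.75 and 2.43 in pEF. The ranges overlapped through pgEpiSC library 4 alone, as the other pgEpiSC libraries lay below both pEF libraries.

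The myosin genes of the set differed least beside ACTC1. MYL9, a regulatory light chain of smooth muscle and non-muscle myosin II, was at 1.20, 2.46, 0.945 and 0.913 TPM in pgEpiSC, against 6.70 and 26.4 TPM in pEF. The groups were apart by less than for the smooth muscle actins, with the lower pEF library at 2.72 times the highest pgEpiSC library. The labels do not say how reads were divided among like light chain genes, so the low level of MYL9 is uncertain. The log2 difference of MYL9 was -2.65 ± 0.58 (SE), and -3.57 or -1.74 without pEF library 1 or 2. MYH9, the heavy chain of non-muscle myosin IIA that most cells use, was at 12.8, 68.4, 27.8 and 9.88 TPM in pgEpiSC, against 51.2 and 175 TPM in pEF. Here pgEpiSC library 2 stood above pEF library 1, so the groups overlapped as deposited. After median-ratio scaling MYH9 was at 18.2, 31.5, 17.1 and 13.6 in pgEpiSC and 88.98 and 183 in pEF, with no overlap. Its log2 difference was -2.03 ± 0.57 (SE) as deposited, -2.68 ± 0.41 (SE) after scaling, and -2.91 or -1.16 without pEF library 1 or 2.

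Across the set, the log2 differences ran from -9.07 for ACTA2 to -1.32 for ACTC1, with a median of -5.24 beside 0.48 for all tested genes. After scaling the median was -5.86 beside 0.02. In 8 of the 10 genes every pgEpiSC library was below both pEF libraries, as in 12.9% of all tested genes (36.6% had every pgEpiSC library above), and after scaling in 9 of 10, as in 35.9% (34.5% above). The limma fit called 9 of the 10 lower and 0 higher, where 9.43% of all tested genes were called lower and 18.0% higher. After scaling it again called 9 lower and 0 higher, where 30.9% and 27.0% of all tested genes were called lower and higher. Since the set was put together with this contrast in view, nothing is read from these counts. The order of levels also differed. By mean it ran MYH9, CALD1, TPM1, TAGLN, TPM2, ACTG2, CNN1, MYL9, ACTC1 and ACTA2 in pgEpiSC, and ACTA2, TPM1, TAGLN, CALD1, TPM2, ACTG2, CNN1, MYH9, MYL9 and ACTC1 in pEF. ACTA2 was thus last of the 10 in pgEpiSC and first in pEF, and MYH9 first in pgEpiSC and in place 8 in pEF. Most neighbours in these orders had overlapping ranges over libraries. The exceptions were TPM2 over ACTG2 in pgEpiSC and MYH9 over MYL9 in pEF.

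**Figure D2:**
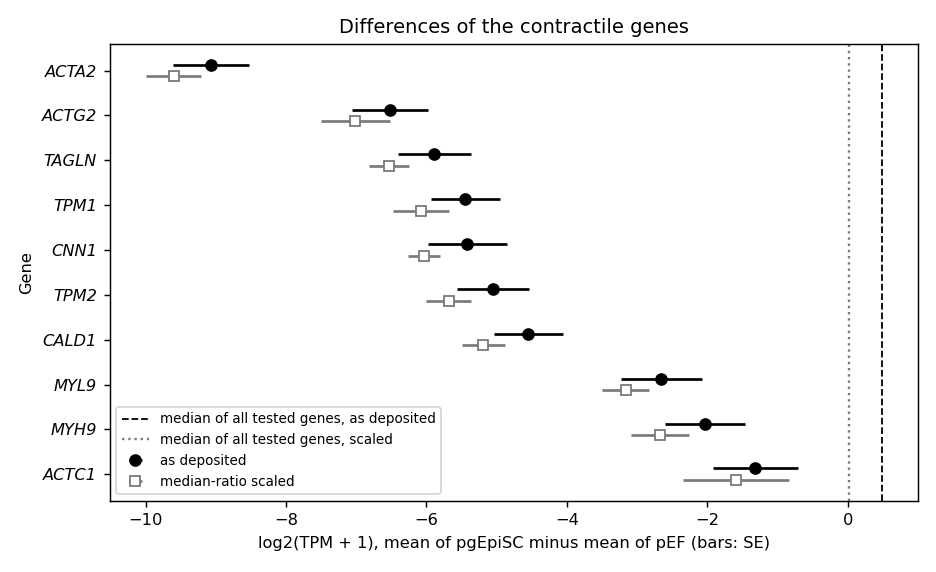
Difference of log2(TPM + 1), mean of 4 pgEpiSC libraries minus mean of 2 pEF libraries, for each contractile gene, as deposited (black) and after median-ratio scaling (open squares); bars are standard errors from limma, and vertical lines mark the median of all tested genes. Every point lies left of both lines, from -9.07 for ACTA2 to -1.32 for ACTC1 as deposited, and ACTC1 turns to 0.48 without pEF library 2.

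Within pgEpiSC, library 2 held the highest value for 9 of the 10 genes, the exception being ACTG2. Library 2 also had the largest sum of listed TPM, and after scaling it was the highest for 3 of the 10. Scaled levels were then close for several genes: the highest pgEpiSC library was 1.44 times the lowest for CALD1, 1.64 times for TAGLN and 1.67 times for CNN1. ACTG2 remained uneven, at 2.91, 1.05, 0.512 and 3.80 after scaling in pgEpiSC libraries 1 to 4, a span of 7.43 times. Libraries 1 and 4 were the high ones for ACTG2. The fibroblast markers in the same libraries summed to 4.34, 5.63, 2.64 and 9.96 TPM before scaling, and to 6.17, 2.59, 1.62 and 13.7 after it. The scaled order of the libraries, 4 then 1, 2 and 3, was the same for the fibroblast markers, ACTG2, TPM1 and ACTC1. The other genes of the set had other orders. Scaled TAGLN, CNN1 and MYH9 were lowest in library 4, at 5.75, 0.928 and 13.6. Scaled ACTA2 was highest in library 1, at 1.40, and at 0.629, 0.454 and 0.477 in libraries 2 to 4. The part of fibroblast RNA in the pgEpiSC levels was not tested.

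The pEF libraries differed from each other in every gene of the set. All 10 were higher in pEF library 2, also after scaling. As deposited, the ratio of library 2 to library 1 was 1.60 for the median of 7097 genes at 1 TPM or more in both, and the ratios of those genes had a 5th percentile of 0.884 and a 95th of 2.76. Every gene of the set was above that median. The ratio was 4.24 for ACTA2, 3.93 for MYL9, 3.41 for MYH9, 3.10 for ACTG2 and 3.04 for TPM1, each above the 95th percentile. It was lower for CALD1 at 2.63, CNN1 at 2.59, TPM2 at 2.19 and TAGLN at 2.01, and by far the highest for ACTC1 at 34.8. Some muscle and non-muscle genes outside the set differed as much. DES, which encodes the muscle intermediate filament desmin, was at 24.5 TPM in pEF library 1 and 204 TPM in library 2, a ratio of 8.34. MYF5, a factor of skeletal muscle precursors, was at 0.234 and 3.06 TPM in the same order, and MYH3, the embryonic myosin heavy chain, at 0.0109 and 1.35 TPM. Among other markers the ratio was 8.78 for the collagen gene COL1A1, 3.89 for COL1A2 and 8.55 for TUBB3, a neuronal tubulin. The other fibroblast markers had lower ratios, at 1.94 for COL3A1, 1.55 for PDGFRB, 1.37 for DCN, 0.867 for PDGFRA, 0.738 for POSTN and 0.715 for LUM. Of the other neural markers NES was at 2.86 and PAX6 at 1.22. All 8 skeletal and cardiac markers, 9 of 10 smooth muscle and pericyte markers and 5 of 8 fibroblast markers were higher in library 2, as were 92.5% of the 7097 genes. After scaling 7, 9 and 3 of them were higher there, and 44.9% of the 7097 genes. The smooth muscle and pericyte markers summed to between 2.36 and 10.6 TPM in pgEpiSC, against 44.7 and 259 TPM in pEF 1 and 2, and 7 of the 10 reached 1 TPM in pEF. DES, which is counted below among striated muscle genes too, made up 24.5 and 204 TPM of the sums in pEF 1 and 2. The part of muscle cells or of other cells in the ACTA2 and ACTG2 levels was not tested. With 2 libraries, the mean of a pEF level has a wide error, and its SD of 1086 TPM for ACTA2 was close to its mean of 1243 TPM.

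**Figure D3:**
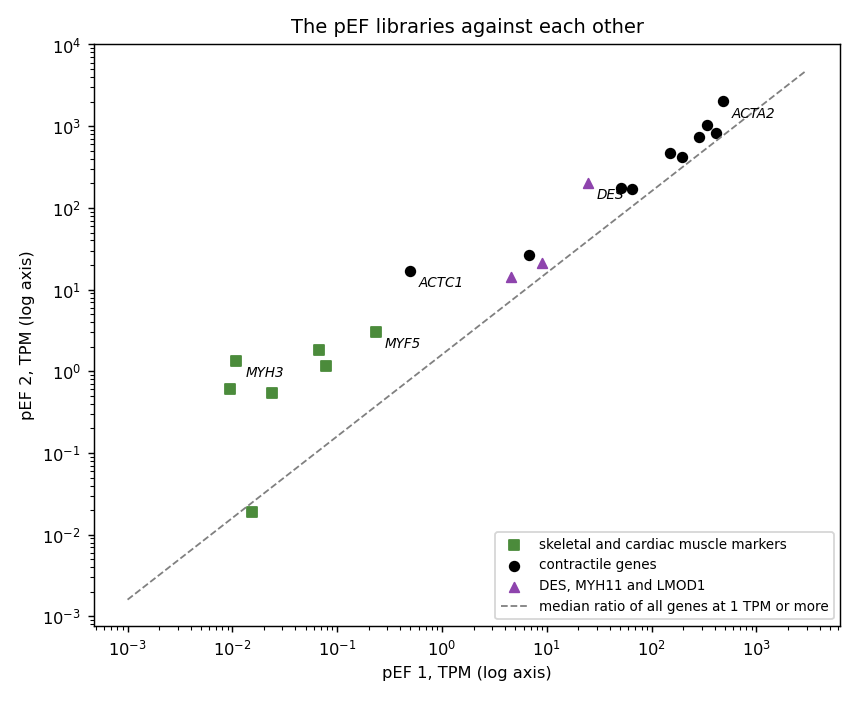
TPM in pEF library 2 against TPM in pEF library 1 (log axes) for the 10 contractile genes (black), 7 skeletal and cardiac muscle markers above 0 in library 1 (green) and 3 smooth muscle genes (purple); the dashed line is the median ratio of 1.60 over 7097 genes. Every contractile gene lies above the line, ACTC1 farthest at a ratio of 34.8, as do all the muscle markers plotted except CKM (1.23).

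Shares within a gene family do not depend on the scale of a library. Of the summed TPM of the 6 actin genes, ACTA2 held 0.396, 0.0886, 0.146 and 0.159% in pgEpiSC 1 to 4, against 38.6 and 50.5% in pEF libraries 1 and 2. ACTG2 held from 0.147 to 1.27% in pgEpiSC, and 12.2 and 11.7% in pEF. Most of the rest was cytoplasmic actin, which nearly all cells make. ACTB held 59.1 ± 4.61% in pgEpiSC (SD, n = 4) and 30.3 ± 7.03% in pEF (SD, n = 2), and ACTG1 39.7 ± 4.88% in pgEpiSC and 12.97 ± 1.35% in pEF. The 4 muscle actins, ACTA1 included, made up 1.20 ± 0.813% of the total in pgEpiSC and 56.8 ± 8.38% in pEF. ACTA2 reached from 0.00157 to 0.00731 times the level of ACTB in pgEpiSC, and 1.09 and 2.00 times in pEF. Actin genes are near-identical over long coding stretches, and the labels do not say how reads were divided among them, so small actin shares are uncertain.

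Tropomyosins and calponins showed the same kind of shift. TPM1 and TPM2 together held 23.3 ± 3.26% of the TPM of the 3 tropomyosin genes found in pgEpiSC (SD, n = 4), and 63.03 ± 5.33% in pEF (SD, n = 2). The rest was TPM4, which is used in most non-muscle cells. TPM3 was not found by symbol and is missing from the sum. CNN1 held 2.27 ± 0.294% of the 3 calponins in pgEpiSC and 48.6 ± 3.73% in pEF. CNN3, the acidic calponin, held 57.7 ± 5.05% in pgEpiSC and 15.05 ± 2.45% in pEF, while CNN2 held 40.04 ± 4.90% in pgEpiSC and 36.3 ± 1.28% in pEF, with overlapping ranges. MYL9 was the minor partner of MYL12A throughout, at 2.11 ± 0.539% of the sum of both genes in pgEpiSC and 6.25 ± 0.888% in pEF. These paralogs too are alike in sequence, and how reads were divided among them is not given, so the low share of MYL9 is uncertain. MYL12B was not found by symbol and is missing from the sum. Among heavy chains, MYH9 was 128 to 553 times the level of the smooth muscle chain MYH11 in pgEpiSC, and 11.2 and 12.3 times in pEF. The pgEpiSC ratios rest on MYH11 levels near the floor, at 0.0503 to 0.178 TPM. The heavy chain gene MYH10 was not found by symbol. The shares of ACTA2, CNN1, MYL9 and of TPM1 with TPM2 did not overlap between the groups.

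**Figure D4:**
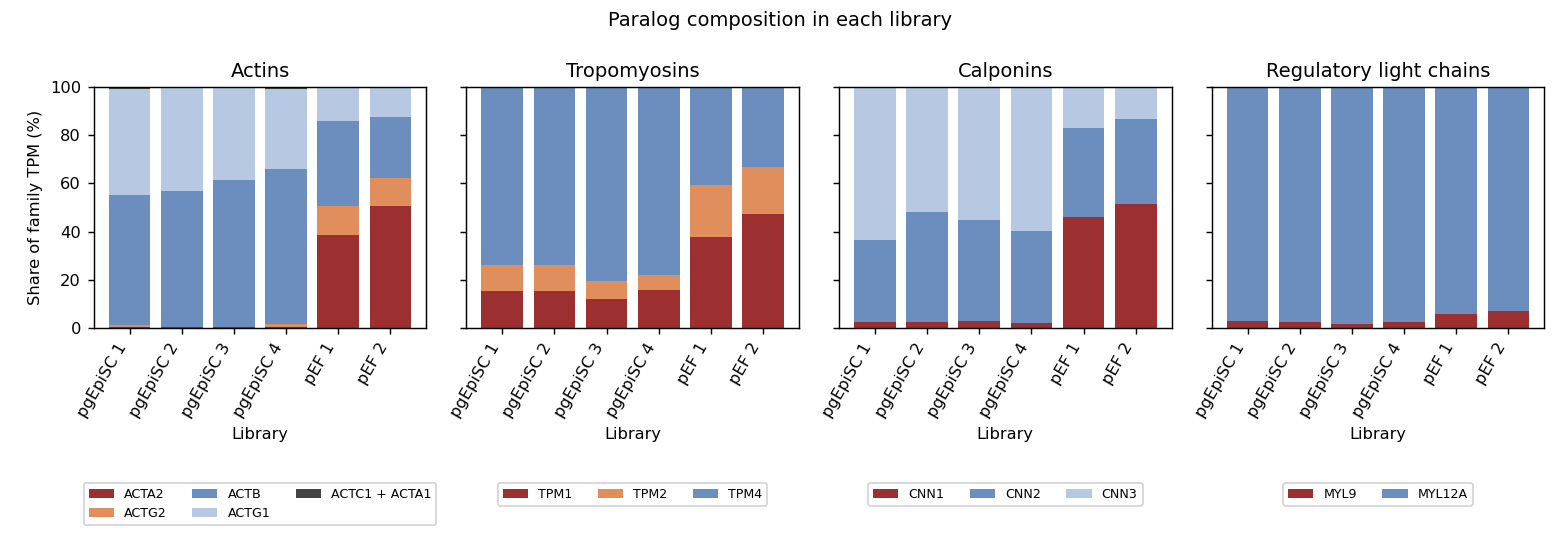
Share (%) of each paralog in the summed TPM of its family in each library, for actins, tropomyosins, calponins and regulatory light chains; bars run from pgEpiSC (left) to pEF (right). The red ACTA2 band is under 0.4% in every pgEpiSC library and 38.6 and 50.5% in pEF, and the red CNN1 band is near 2% in pgEpiSC and at 46.0 and 51.3% in pEF.

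The other genes of the contractile apparatus were grouped in 6 lists by role, with 141 genes in all, of which 119 were found and 79 were tested. In the fit over all tested genes 34 of the 79 were lower in pgEpiSC, 2 were higher and 43 were not called (limma, adjusted p below 0.05). Of all tested genes 9.43% were called lower and 18.0% higher. After scaling the lower calls were 6 of 9 paralogs, 14 of 16 smooth muscle markers and 12 of 20 genes of myosin phosphorylation. In the other lists they were 15 of 21 genes of stress fibres, 8 of 12 transcription factors and 1 of 4 striated muscle genes. In each list 0 or 1 gene was then called higher, and 30.9% and 27.0% of all tested genes were called lower and higher. A gene that reaches 1 TPM in pEF alone can pass the filter only by being higher there, so such genes are counted with each list. Among the 34 lower calls these were MYH11, LMOD1, SYNPO2, ITGA8, HSPB6, CSPG4, MYLK, TNS1, KLF4, MEF2C, ELK3 and HAND2. The filter set the direction of their calls, so the count of 34 is not read against the share of all genes. CIT, among the 2 higher calls, passed through pgEpiSC alone. Many of these calls rest on single libraries, and the calls lost with a library left out are given with each list.

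**Figure D5:**
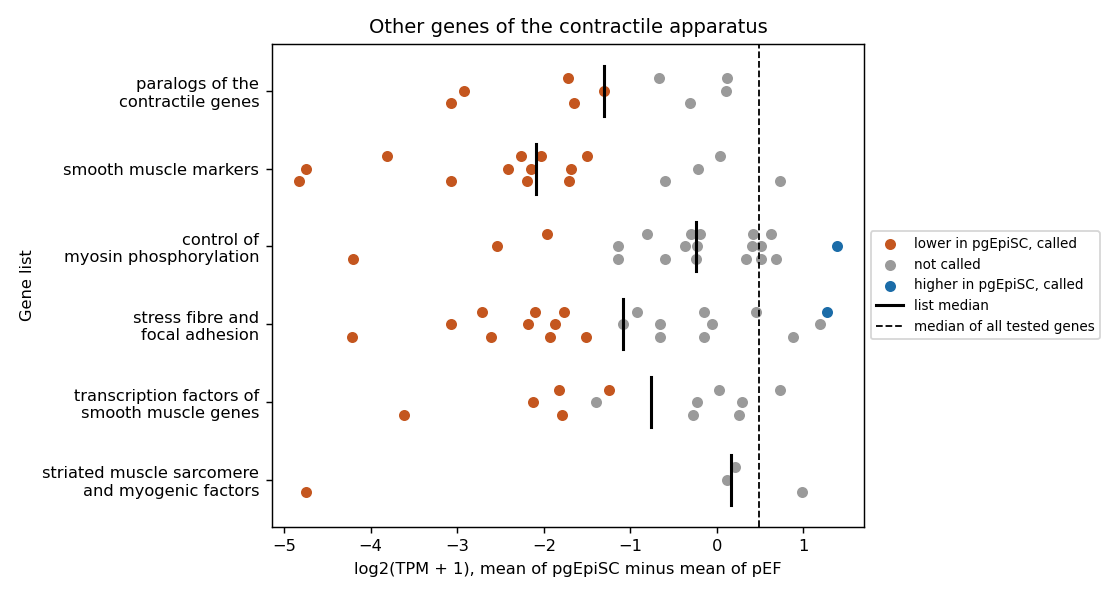
Difference of log2(TPM + 1), mean of pgEpiSC minus mean of pEF, for each tested gene (point) of 6 lists of the contractile apparatus; colours give the limma call, short bars the list median, and the dashed line the median of all tested genes (0.48). Points called lower were 12 of 16 among smooth muscle markers and 3 of 20 among genes that control myosin phosphorylation, where 9.43% of all tested genes were called lower. Of these lower calls 6 and 1 passed the filter through pEF alone, which set their direction.

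Paralogs of the 10 genes were mostly lower in pgEpiSC or not called. Of 9 tested, 5 fell, 0 rose and 4 were not called, with a median log2 difference of -1.30, and 1 of the 9, MYH11, passed the filter through pEF alone. TPM4 was at 69.9 ± 24.0 TPM in pgEpiSC and 545 ± 253 TPM in pEF (-2.92 ± 0.45 SE, adjusted p = 2.45e-06, limma), and MYL12A at 65.4 ± 31.4 TPM in pgEpiSC and 235 ± 173 TPM in pEF (-1.72 ± 0.49, adjusted p = 0.00689). CNN2 (-1.66, adjusted p = 0.0197) and ACTB (-1.30, adjusted p = 0.0449) fell by less in the same fit, and their ranges overlapped between the groups. ACTG1 (-0.67), CNN3 (0.10), MYL6 (-0.31) and ACTA1 (0.12) were not called; after scaling CNN3 and ACTA1 were at -0.53 and -0.04 and MYL6 was called lower (-0.83), while MYH14 and TAGLN3 were below the filter. The calls of 3 genes hung on single libraries: MYL12A was at -0.89 without pEF library 2, CNN2 at -1.37, -2.22 and -1.09 without pgEpiSC library 4, pEF library 1 and pEF library 2, and ACTB at -0.97, -0.99, -1.91 and -0.69 without pgEpiSC library 1 or 4 or pEF library 1 or 2. ACTG1 was called lower without pgEpiSC library 2 (-1.30, limma adjusted p = 0.00153). The list then had 3 calls without pgEpiSC library 4 or pEF library 1, and 2 without pEF library 2.

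Most tested markers of differentiated smooth muscle were lower in pgEpiSC than in pEF. Of 16 tested, 12 fell, 0 rose and 4 were not called, with a median of -2.09; 6 of the 12 (MYH11, LMOD1, SYNPO2, ITGA8, HSPB6 and CSPG4) passed the filter through pEF alone. The integrin chain ITGA8 was at 0.0463 ± 0.0457 TPM in pgEpiSC and 37.7 ± 34.9 TPM in pEF (-4.83 ± 0.57 SE, adjusted p = 8.85e-09, limma). DES was at 1.76 ± 0.690 TPM in pgEpiSC and 114 ± 127 TPM in pEF (-4.75 ± 0.61), and LMOD1, an actin filament nucleator of smooth muscle, at 0.0537 ± 0.0387 TPM in pgEpiSC and 14.9 ± 8.42 TPM in pEF (-3.81 ± 0.49). MYH11, the heavy chain that defines mature smooth muscle, was at 0.0950 ± 0.0567 TPM in pgEpiSC and 9.36 ± 6.78 TPM in pEF (-3.07 ± 0.46, limma adjusted p = 2.08e-06), far below ACTA2 in the same pEF libraries. SMTN, smoothelin, fell as well (-1.50, limma adjusted p = 0.0263), a call lost without pgEpiSC library 1, 3 or 4 (-1.36, -1.56 and -1.36) and without pEF library 1 or 2 (-1.96 and -1.05). Some markers were near the floor in pEF too: KCNMB1 was listed at 0 in both pEF libraries and RGS5 was at 0.0317 TPM or less. Without pEF library 2 the calls of CSRP1 (-1.56), PDLIM7 (-1.61), NEXN (-1.76) and LPP (-0.89) were lost as well, which left 7. LPP was also lost without pEF library 1 (-2.48) and pgEpiSC library 4 (-1.46).

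Of 20 tested genes that control the phosphorylation of myosin, 3 fell, 1 rose and 16 were not called as deposited, with a median of -0.24. MYLK, the kinase that phosphorylates the regulatory light chain, was the exception in size, at 0.127, 0.501, 0.548 and 0.118 TPM in pgEpiSC and 10.97 and 47.6 TPM in pEF (-4.21 ± 0.57 SE, adjusted p = 2.62e-07, limma); it passed the filter through pEF alone. DAPK3, another kinase of the light chain, was at 1.65 ± 1.43 TPM in pgEpiSC and 14.2 ± 8.02 TPM in pEF (-2.54 ± 0.58). The small GTPase gene RHOC was at 13.4 ± 10.8 TPM in pgEpiSC and 51.2 ± 31.7 TPM in pEF (-1.96 ± 0.55), with overlapping ranges. CIT, the citron kinase of cell division, rose, at 2.92 ± 2.03 TPM in pgEpiSC and 0.361 ± 0.349 TPM in pEF (1.39 ± 0.52, limma adjusted p = 0.0402). It passed the filter through pgEpiSC alone. RHOA, ROCK1, ROCK2 and the myosin phosphatase genes PPP1R12A and PPP1CB were not called as deposited. After scaling RHOA (-0.91), ROCK1 (-1.40), ROCK2 (-1.19) and PPP1R12A (-0.86) were called lower. Without pEF library 2 the calls of DAPK3 (-1.97), RHOC (-1.30) and CIT (1.65) were lost, as were those of RHOC (-2.62) and CIT (1.12) without pEF library 1 and of CIT without pgEpiSC library 3 (1.19). The list had 1 lower call without pEF library 2 and 5 without pgEpiSC library 2, where PRKG1 and ARHGEF12 were added. Scaling moved this list most: 12 of the 20 were called lower and 1 higher after it, where 30.9% of all tested genes were called lower.

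Of 21 tested genes of stress fibres and focal adhesions, 10 fell, 1 rose and 10 were not called, with a median of -1.09. CAVIN1, a coat protein of caveolae, was at 2.77 ± 1.499 TPM in pgEpiSC and 67.7 ± 24.2 TPM in pEF (-4.22 ± 0.54 SE, adjusted p = 7.23e-08, limma). The scaffold gene PDLIM5 was at 2.85 ± 2.19 TPM in pgEpiSC and 28.5 ± 8.51 TPM in pEF (-3.07 ± 0.57). TGFB1I1, a focal adhesion adaptor, was at 0.504 ± 0.491 TPM in pgEpiSC and 10.05 ± 7.87 TPM in pEF (-2.72 ± 0.53). PALLD, which encodes the actin cross-linker palladin, was at 1.78 ± 1.40 TPM in pgEpiSC and 15.9 ± 9.63 TPM in pEF (-2.60 ± 0.58). Of the 21, TNS1 passed the filter through pEF alone and SVIL through pgEpiSC alone. VCL, ACTN1, ACTN4, TLN1, TNS1 and LIMA1 made up the other calls, and the ranges of VCL and ACTN1 overlapped between the groups. CAV1, the partner of CAVIN1 in caveolae, went the other way, at 65.04, 59.9, 107 and 61.4 TPM in pgEpiSC and 24.7 and 33.6 TPM in pEF (1.27 ± 0.47, limma adjusted p = 0.0368). That call was lost after scaling (0.64), where the ranges overlapped, and without pgEpiSC library 1, 3 or 4 (1.32, 1.08 and 1.34) or pEF library 1 or 2 (1.06 and 1.49). Without pEF library 2 the calls of PDLIM5 (-2.77), PALLD (-1.99), VCL (-0.996), ACTN1 (-1.11), ACTN4 (-1.22), TLN1 (-1.39) and LIMA1 (-1.20) were lost, which left CAVIN1, TGFB1I1 and TNS1. Without pEF library 1 those of VCL (-2.76), ACTN1 (-2.74), ACTN4 (-2.31) and LIMA1 (-1.81) were lost, which left 6. LIMA1 was also lost without pgEpiSC library 1, 3 or 4 (-1.29, -1.62 and -1.32), and ACTN4 without pgEpiSC library 4 (-1.52).

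Among transcription factors that act on smooth muscle genes, serum response factor and its cofactors MRTFA and MRTFB were not called, as deposited or scaled. SRF was at 1.67, 7.01, 3.19 and 1.58 TPM in pgEpiSC and 1.57 and 3.19 TPM in pEF (0.25 ± 0.57 SE, and -0.24 after scaling), and MRTFA (0.03 ± 0.43, and -0.33 after scaling) and MRTFB (0.29 ± 0.34) were at 2.24 TPM or less in every library. MYOCD, the smooth and cardiac muscle cofactor of SRF, did not exceed 0.0577 TPM in pgEpiSC or 0.171 TPM in pEF. Of the 12 factors tested, 5 fell, 0 rose and 7 were not called. In all, 4 of the 5 (HAND2, ELK3, MEF2C and KLF4) passed the filter through pEF alone, so the filter set the direction of their calls. MRTFB and KLF5 passed through pgEpiSC alone. HAND2, a factor of heart and limb development, was at 0.0268 ± 0.0452 TPM in pgEpiSC and 11.6 ± 0.0675 TPM in pEF (-3.61 ± 0.46, adjusted p = 6.67e-08, limma). ELK3, an ETS partner of SRF, was at 0.514 ± 0.286 TPM in pgEpiSC and 5.55 ± 0.546 TPM in pEF (-2.13 ± 0.48). TEAD1, which binds the MCAT elements of muscle genes, was at 2.46 ± 1.38 TPM in pgEpiSC and 11.6 ± 7.17 TPM in pEF (-1.83 ± 0.58), and MEF2C, a MADS-box factor of muscle, at 0.141 ± 0.0797 TPM in pgEpiSC and 3.03 ± 1.27 TPM in pEF (-1.79 ± 0.37). KLF4 was the fifth, at 0.609 ± 0.173 TPM in pgEpiSC and 2.84 ± 0.722 TPM in pEF (-1.25 ± 0.43, limma adjusted p = 0.0283). The call of TEAD1 was lost without pEF library 1 or 2 (-2.44 and -1.22), and that of KLF4 without pEF library 2 (-1.06) and without pgEpiSC library 3 or 4 (-1.24 and -1.18). Without pEF library 2 the list had 3 calls.

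Of the 30 sarcomere genes of striated muscle and myogenic factors found, 20 stayed under 1 TPM in every library. The other 10 reached 1 TPM in at least 1 library, and 4 of them were tested, of which DES was called.

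The genes most like ACTA2 in profile over the 6 libraries were sought among all tested genes. By Euclidean distance between profiles of log2(TPM + 1), each less its own mean over the 6 libraries, the 5 nearest tested genes outside the set were CCL2, a chemokine (distance 1.63), the collagen gene COL3A1 (2.02), THBS1, thrombospondin 1 (2.06), the collagen gene COL1A2 (2.28) and ASPN, asporin (3.26). ACTG2 lay among them at 3.13. Of the other genes of the set, TAGLN was at 3.91 and ACTC1 farthest at 9.03. The order of the 5 neighbours was that of their log2 differences between the groups. These were -9.33 for CCL2, -7.70 for COL3A1, -7.32 for THBS1, -7.31 for COL1A2 and -6.52 for ASPN. A near gene is thus mainly one with a like difference between the groups. The pEF libraries tell these neighbours apart: THBS1 was at 310.0 and 972 TPM and COL1A2 at 167 and 651 TPM in pEF libraries 1 and 2, higher in library 2 as ACTA2 was, whereas CCL2 was at 673 and 659 TPM. COL3A1, at 228 and 441 TPM, and ASPN, at 109 and 185 TPM, had ratios of 1.94 and 1.69. These were nearer the median ratio of 1.60 given above.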

How the data were processed

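Per the labels' protocols, rRNA-depleted, strand-specific libraries of total RNA were sequenced as paired-end reads. The submitters' processing notes name the tools STAR 2.6.0c and kallisto 0.44.0, without their roles; neither build nor annotation is given in the sources used here. Per the file headers, the authors deposited TPM for 20132 Ensembl genes in each library. Depth per library is unknown.

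Symbols came from a table of gene names, which matched 14062 rows (69.8%), and rows that shared a symbol were summed. Genes with at least 1 TPM in at least 2 libraries (10424) were fitted as log2(TPM + 1) by limma 3.58.1 under R 4.3.3 on the cell type, with a variance trend and Benjamini-Hochberg adjustment over all tested genes. The scale understates changes of low genes. Simulated data with known changes were used to test the procedure. The simulated libraries did not differ in scale, so the simulation does not cover the scale differences of the deposited values. Tables and figures used Python 3.11.15, pandas 2.3.3, numpy 2.4.6 and matplotlib 3.10.9. Alternatives were other pseudocounts, filters, scalings, variances, a replicate block and each library left out.

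The 10 genes, the 6 lists and the 7 marker lists were chosen with earlier results of these data known. Named are the 10 genes, their paralogs, MYH11, SMTN, LMOD1, DES, MYOCD, SRF, MRTFA and MRTFB, up to 4 called genes per list by size and up to 2 against its direction, and the 5 genes nearest to ACTA2. Other genes, such as KLF4, LPP, TUBB3, MYF5, MYH3 and RGS5, were named after their values were seen. Endothelial and neural markers summed to between 0.292 and 1.56 TPM and between 11.5 and 45.1 TPM in pgEpiSC, and to 1.02 and 2.41 TPM and 9.25 and 37.0 TPM in pEF.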

Additional observations from a re-analysis of the deposited data

Results flagged for a closer look

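Of 52 sets of 4 pgEpiSC values examined, 3 held a library that stood apart from the other 3 by a gap above Dixon's critical value. Chance gives about 1 in 20 for independent normal values. The sets come from the same 4 libraries and are not independent, so nothing is read from their count. TPM1 was at 20.6 TPM in pgEpiSC library 2, with a gap of 0.865 of the range. After median-ratio scaling TPM1 was at 13.8, 9.48, 6.81 and 15.3 in pgEpiSC libraries 1 to 4, so library 2 lay inside the range of the others. CAV1 was at 107 TPM in pgEpiSC library 3 (gap 0.890). HAND2 was at 0.0939 TPM in pgEpiSC library 4 (gap 0.859), a level under the filter.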

How the results depend on the processing

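With 2 pEF libraries and unknown depth, the spread in pEF is poorly known; when 1 is left out, the other is assumed to vary like the pgEpiSC libraries. ACTC1 turned to 0.48 without pEF library 2 and was at -3.12 without pEF library 1. Leaving out each library in turn gave 252 to 2270 higher and 555 to 1367 lower genes, a median of the 10 genes of -5.86 to -4.57, 7 to 10 of them called lower and 8 to 10 apart. The lists then had 2 to 6 lower paralogs, 7 to 12 smooth muscle markers, 1 to 5 lower and 0 to 1 higher genes of myosin phosphorylation, 3 to 12 lower and 0 to 1 higher of stress fibres, and 3 to 6 lower transcription factors. The share of ACTA2 in actins differed by -50.3 to -38.4 points, of MYL9 in light chains by -4.77 to -3.51, and of TPM1 with TPM2 in tropomyosins by -43.4 to -35.9.

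A pseudocount of 5 gave 967 higher genes, a median of the 10 genes of -4.40, 3 lower paralogs, and 0 higher genes of myosin phosphorylation and of stress fibres. No filter gave 787 higher genes, 2 lower paralogs, 7 smooth muscle markers, 5 lower and 0 higher genes of stress fibres, 0 higher of myosin phosphorylation and 2 lower striated muscle genes. A mean of at least 5 TPM gave 1185 higher and 368 lower genes, 3 paralogs, 7 smooth muscle markers, 0 higher genes of myosin phosphorylation and 1 transcription factor. Median-ratio scaling gave 3222 lower genes, a median of -5.86, 12 lower genes of myosin phosphorylation, and 8 lower and 1 higher transcription factors. Rescaling to 1000000 gave 2924 lower genes, -6.18, 12 lower genes of myosin phosphorylation, 0 higher of stress fibres and 8 transcription factors. Fewer genes are tested under the stricter filter; the cause of the other shifts was not tested. A pseudocount of 0.1 and a robust variance moved no count beyond 1.5 times.

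Replicate numbers 1 and 2 occur in both groups but do not pair the samples by the labels; deviations of same-numbered libraries correlated at 0.098 and 0.172 across 10424 genes, which are not independent. With the replicate block 2204 genes were higher and 893 lower, the median of the 10 genes was -4.97, and the call of SMTN was lost (-1.37, limma adjusted p = 0.0603). The block with median-ratio scaling gave 2619 lower genes, 9 lower genes of myosin phosphorylation and 1 higher transcription factor.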
